A study of Mus musculus with 2 samples.

Results

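The genes described here are the 9 genes of retinoid synthesis, binding and reception *Aldh1a1*, *Aldh1a2*, *Aldh1a3*, *Crabp1*, *Crabp2*, *Rara*, *Rarb*, *Rarg* and *Cyp26b1*. They were found by symbol among the 22156 genes of the deposited table and each had 1 row. They were picked from a pathway whose counts in these same libraries were already known, so their levels and ratios are a description and carry no test. Cells make retinoic acid from vitamin A (retinol) by way of retinaldehyde, which the ALDH1A enzymes oxidise to the acid. Cellular retinoic acid-binding proteins carry it in the cytosol, the retinoic acid receptors (RARs) bind DNA as partners of retinoid X receptors (RXRs), and enzymes of the CYP26 family degrade it. In the growth plate of the skeleton, RARs that have no ligand are known to favour the cartilage programme, and an excess of retinoic acid is known to disturb it.

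Rib cartilage cells of newborn mice, grown as a monolayer in medium with serum and with no further treatment named in the labels, were sequenced as 1 control library and 1 *Myl3*-KO library. In the *Myl3*-KO mice a Cre recombinase driven by the *Col2a1* promoter, which is active in cartilage cells, removes floxed *Myl3*, the gene of a myosin light chain. The study's methods describe the controls as littermates with floxed *Myl3* and no Cre, whereas the labels give their genotype as WT. The methods place all mice on a C57BL/6J background and also name articular cartilage as a source of the cells. Neither source states how many pups gave each library. Expected counts (reads assigned to each gene by estimation) summed to 17612435 for the control library against 13477977 for *Myl3*-KO, so a gene of equal level would have 76.5% as many counts in *Myl3*-KO. *Myl3* had 0 counts in both libraries and could not check the labels. Also at 0 were *Hapln1*, *Matn3*, *Matn1* and *Acan*, all genes of cartilage matrix. *Col2a1* had 30 counts in the control against 27 in *Myl3*-KO, and 5 of 15 cartilage markers in the table were at 0 in both. Near 0 were *Col9a1* with 0 and 1 counts, *Col9a2* with 0 and 2 and *Comp* with 1 and 2. *Chad* had 7 and 8 counts and *Sox6* 14 and 7. Better counted were *Col11a2* at 293 and 395, *Col11a1* at 121 and 99 and *Sox5* at 893 and 684. *Sox9*, a cartilage transcription factor, had 866 and 480 counts. Several defining matrix markers of the labelled cell type were thus missing or near 0, and other markers of the list were present. In bulk RNA, fewer cells of a type and less RNA per cell cannot be told apart.

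Each count was scaled by the total of its library, and ratios are *Myl3*-KO over control, on a log2 scale where so named. Each ratio is given with a 95% Clopper-Pearson interval of the counts. These intervals cover counting error only, since no difference between single libraries has a replicate check. A gene counted as tested when both libraries together held at least 10 counts. As the floor that a count of 0 allows, 3 counts were taken, which are 0.170 CPM (counts scaled to a library of 1000000) in the control against 0.223 in *Myl3*-KO. Levels are compared between genes in the authors' FPKM, which scales reads by gene length and library. Of the 9 genes, 5 were tested, 2 were counted below that minimum and 2 were at 0 in both libraries.

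*Rarb* is the receptor gene best known for being switched on by retinoic acid itself, through a direct repeat of receptor half-sites just before a start of its transcript. The bases upstream of the receptor genes are printed to show this element beside those of *Rara* and *Rarg*, which carry most of the receptor RNA in these cells. The receptor half-site AGGTCA was searched along with its close variants, of which the first is AGTTCA, another is written GGGTCA, while the last reads GGTTCA. All were searched on both strands of RefSeq promoters on GRCm38.p6, which hold 250 bases before and 50 after each start site. Capitals mark a half-site on either strand, and each sequence is the 250 bases before the start, read 5′ to 3′ on the strand of the gene. For *Rara* and *Rarg*, which have several starts in the table, the start with the most half-sites is shown. The *Rarb* sequence lies at chr14:16575477-16575726 on the minus strand, that of *Rara* at chr11:98939461-98939710 on the plus strand and that of *Rarg* at chr15:102257523-102257772 on the minus strand.
Rarb: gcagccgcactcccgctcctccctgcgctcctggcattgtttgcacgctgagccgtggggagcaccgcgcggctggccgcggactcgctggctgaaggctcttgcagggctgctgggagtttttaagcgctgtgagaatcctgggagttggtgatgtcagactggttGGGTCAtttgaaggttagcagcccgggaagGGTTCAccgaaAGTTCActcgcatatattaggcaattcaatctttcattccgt
Rara: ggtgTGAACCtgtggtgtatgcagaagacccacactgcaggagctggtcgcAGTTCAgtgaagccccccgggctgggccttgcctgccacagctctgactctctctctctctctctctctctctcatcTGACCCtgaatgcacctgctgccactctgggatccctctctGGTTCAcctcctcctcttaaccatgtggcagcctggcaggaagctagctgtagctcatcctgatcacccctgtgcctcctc
Rarg: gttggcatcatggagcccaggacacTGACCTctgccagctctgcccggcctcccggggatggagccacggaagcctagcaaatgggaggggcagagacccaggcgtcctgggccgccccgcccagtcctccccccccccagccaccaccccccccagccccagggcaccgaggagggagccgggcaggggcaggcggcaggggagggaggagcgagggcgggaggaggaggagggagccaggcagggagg

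The *Rarb* sequence holds the direct repeat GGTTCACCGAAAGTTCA, made of a pair of half-sites with 5 bases between them and beginning 53 bases before the start. Of the 32851 promoters in the table, 32 hold such a repeat on either strand (0.0974%), while 43.7% hold at least 1 half-site. RefSeq promoters were found for 7 of the 9 genes, in 12 rows. By gene, 1 of the 7 held this repeat, against 0.115% of the 27025 genes with such promoters. Half-sites were found for 4 of the 7, *Rara*, *Rarb*, *Rarg* and *Aldh1a1*, against 46.9% of the 27025 genes. Direct repeats with 1 or 2 bases between the half-sites were found for 0 of the 7, against 0.263% and 0.311%. These are matches of letters in short windows, and binding was not measured.

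Of the receptor genes, *Rarg* was the most abundant of all 9 genes in each library. *Rarg* (ENSMUSG00000001288, chromosome 15 from 102234938 to 102257517 on GRCm38) encodes RAR gamma, the receptor long known from cartilage and skin. The control held 1487 counts and *Myl3*-KO 1323, or 84.4 and 98.2 CPM. Its FPKM was 30.3 in the control (counting interval 28.8 to 31.9) and 34.8 in *Myl3*-KO (33.0 to 36.7), above 86.4% and 88.5% of all genes in the table. The control interval ends below the *Myl3*-KO interval, so the libraries differed by more than counting error, by a ratio of 1.16 (log2 ratio 0.22, 95% interval 0.11 to 0.33). Of the genes tested, 23.5% had a ratio at least as high, and 40.7% had a log2 ratio at least as far from 0 in either direction.

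*Rara* (ENSMUSG00000037992, chromosome 11 from 98927818 to 98974942), which encodes RAR alpha, the broadly expressed receptor, was second in both libraries. Its counts were 605 in the control against 453 in *Myl3*-KO, with FPKM values of 12.7 (11.7 to 13.7) and 11.9 (10.9 to 13.1). These intervals overlap, and the ratio was 0.978 (log2 ratio -0.03, 95% interval -0.21 to 0.15). The interval of the ratio itself ran from 0.864 to 1.11.

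*Rarb* (ENSMUSG00000017491, chromosome 14 from 16430839 to 16819156) encodes RAR beta, and its RNA is commonly read as a measure of retinoic acid signalling. Its counts of 20.24 in the control against 11.14 in *Myl3*-KO are 1.15 and 0.827 CPM and lie far below the other receptors. The log2 ratio of the counts was -0.48 with a 95% interval of -1.68 to 0.65, so neither a lower nor a higher level in *Myl3*-KO was detectable at this depth. The FPKM values were 0.77 (0.47 to 1.19) and 0.38 (0.19 to 0.68), whose log2 ratio of -1.02 passes the 2-fold limit that the counts do not pass. The 2 units differ because the transcript length that the FPKM implies for *Rarb* was 1492 bases in the control against 2175 in *Myl3*-KO. It was 931 in each library for *Crabp2*, whose only coding transcript in GENCODE M21 has 931 bases. The implied length also differed for *Rara*, at 2715 and 2815 bases, and for the weakly counted *Aldh1a1*, at 2028 and 742. In GENCODE M21 the coding transcripts of *Rarb* span 360 to 3108 bases.

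Alone among the 9 genes, *Rarb* had counts that were not whole numbers. It lies against *Top2b*, the gene of a DNA topoisomerase on the opposite strand, and they share 4624 bases of chromosome 14. *Top2b* had 8228.76 counts in the control against 6459.86 in *Myl3*-KO. The sum of both genes was a whole number in each library, 8249 and 6471. *Rarb* amounted to 0.246% of the *Top2b* counts in the control against 0.172% in *Myl3*-KO. The strand used in counting is not given in the sources used here, so reads of these genes cannot be told apart and the level of *Rarb* is uncertain. The part of *Top2b* reads in it was not tested.

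**Figure D1:**
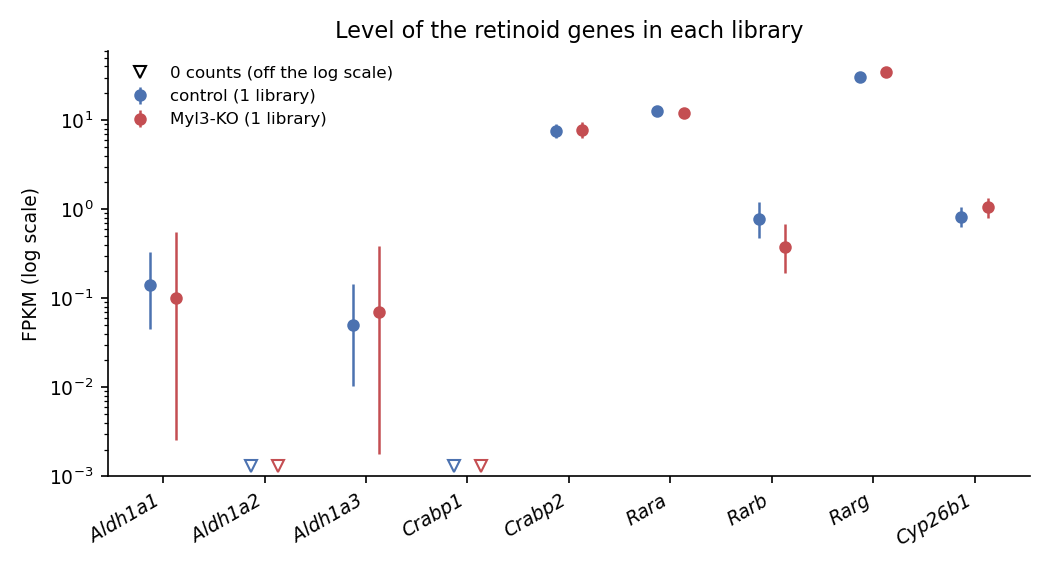
FPKM of each of the 9 genes in the control library and the *Myl3*-KO library on a log axis, with bars for the 95% Poisson interval of the count carried over to FPKM, and open triangles for genes with 0 counts, which have no place on a log axis. *Rarg* at 30.3 and 34.8 FPKM, *Rara* and *Crabp2* stand far above the other genes, while *Aldh1a2* and *Crabp1* had 0 counts in both libraries.

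Within the RAR genes, *Rarg* made up 69.3% of the summed FPKM in the control against 73.9% in *Myl3*-KO. The share of *Rara* was 28.9% and 25.3%, and that of *Rarb* 1.76% and 0.806%. In shares of the RAR counts, which give an interval, *Rarg* had 70.4% (95% Clopper-Pearson interval 68.4 to 72.3) in the control and 74.0% (71.9 to 76.1) in *Myl3*-KO. These intervals just overlap. The 3 genes together had 43.7 FPKM in the control against 47.1 in *Myl3*-KO, a log2 ratio of 0.14 in counts (95% interval 0.05 to 0.24).

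The RXR genes, which encode the obligate partners of the RARs, were of like abundance. *Rxra* had 1093 counts in the control against 894 in *Myl3*-KO (13.7 and 13.5 FPKM), and *Rxrb* had 875 and 703 (23.4 and 24.9 FPKM). *Rxrg* had 0 counts in both libraries. The summed FPKM of the RXR genes was 37.1 in the control against 38.5 in *Myl3*-KO, a log2 ratio of 0.08 in counts (95% interval -0.01 to 0.18). RAR over RXR, each summed in FPKM, was 1.18 in the control against 1.23 in *Myl3*-KO.

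**Figure D2:**
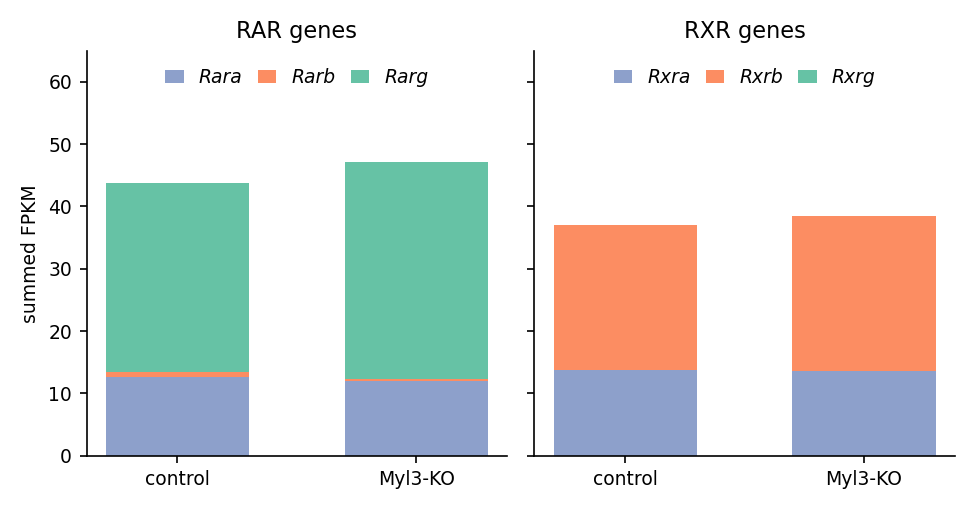
Summed FPKM of the RAR genes and of the RXR genes in each library, stacked by gene, with 1 library per bar and so no error bar. The RAR bars reach 43.7 and 47.1 FPKM and consist mostly of *Rarg* and *Rara*, and the RXR bars reach 37.1 and 38.5 FPKM with no *Rxrg*.

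The binding proteins were represented by *Crabp2* alone. *Crabp2* (ENSMUSG00000004885, chromosome 3 from 87948666 to 87953376) encodes the protein that hands retinoic acid over to the receptors in the nucleus. The control held 123 counts and *Myl3*-KO 98, with FPKM values of 7.5 (6.23 to 8.95) and 7.81 (6.34 to 9.52). The values overlap, with a log2 ratio of 0.06 (95% interval -0.34 to 0.45). *Crabp1* (ENSMUSG00000032291, chromosome 9 from 54764748 to 54773110), whose protein binds retinoic acid in the cytosol, had 0 counts in both libraries. Out of the summed counts of both binding protein genes, a share of *Crabp1* of up to 2.95% in the control against 3.69% in *Myl3*-KO lies within the 95% Clopper-Pearson interval. In the order of FPKM, *Crabp2* came after *Rarg* and *Rara* in both libraries, and its interval did not overlap that of *Rara* above it or *Cyp26b1* below it.

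The retinaldehyde dehydrogenases, which make retinoic acid, were at or near 0. *Aldh1a2* (ENSMUSG00000013584, chromosome 9 from 71215789 to 71296243), the main enzyme of retinoic acid synthesis in the embryo, had 0 counts in the control against 0 in *Myl3*-KO. *Aldh1a1* (ENSMUSG00000053279, chromosome 19 from 20492715 to 20643465) had 5 counts in the control against 1 in *Myl3*-KO, or 0.14 and 0.10 FPKM. *Aldh1a3* (ENSMUSG00000015134, chromosome 7 from 66390890 to 66427517) had 3 and 1 counts, or 0.05 and 0.07 FPKM. All 3 genes together thus had 8 counts in the control against 2 in *Myl3*-KO. The ratio of *Aldh1a1* was 0.261 with a 95% interval of 0.00553 to 2.34, and that of the 3 summed genes had a log2 interval of -4.89 to 0.71. A difference between the libraries was therefore not detectable in these enzymes at this depth. For *Aldh1a3* the FPKM was higher in *Myl3*-KO although the count was lower, because the transcript length that the FPKM implies was 3407 bases in the control against 1060 in *Myl3*-KO. Either difference between the libraries lies within counting error.

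The degrading enzyme *Cyp26b1* (ENSMUSG00000063415, chromosome 6 from 84571414 to 84593908), known for keeping retinoic acid away from developing cartilage and limb, had 62 counts in each library. Scaled to the library totals these are 3.52 CPM in the control against 4.60 in *Myl3*-KO, and the FPKM was 0.82 (0.63 to 1.05) and 1.05 (0.81 to 1.35). Its ratio of 1.31 (log2 ratio 0.39, 95% interval -0.15 to 0.92) was the highest of the 5 genes tested, but its interval includes no difference. In the control, *Cyp26b1* and *Rarb* next to it in the order of FPKM did not differ beyond their intervals, whereas in *Myl3*-KO the FPKM intervals were apart. That separation rests on the FPKM of *Rarb*, whose implied length differed between the libraries. *Cyp26a1*, a paralogue that retinoic acid is known to induce, had 11 counts in each library, and *Cyp26c1* had 0.

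**Figure D3:**
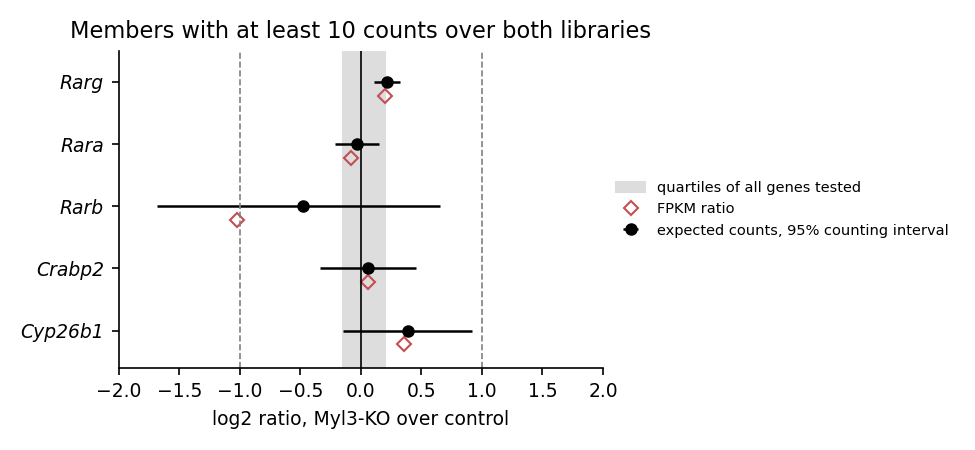
Log2 ratio of *Myl3*-KO over control for the 5 genes tested, from expected counts with the 95% counting interval (filled points) and from FPKM (open diamonds), with dashed lines at 2-fold and a band between the quartiles of all genes tested. The interval of *Rarg* (0.11 to 0.33) lies above 0, those of the other genes include 0, and the FPKM ratio of *Rarb* at -1.02 departs from its count ratio at -0.48.

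Of the 5 genes tested, 0 were at least 2-fold higher in *Myl3*-KO, a limit passed by 2.16% of the 12431 genes tested in the table, and 0 were at least 2-fold lower, against 1.19%. The counting interval lay above 0 for 1 of the 5, *Rarg*, against 22.2% of all genes tested, and below 0 for 0, against 20.1%. The median log2 ratio of the 5 genes was 0.06, and that of all genes tested was 0.02. Their ratios ran from -0.48 for *Rarb* to 0.39 for *Cyp26b1*.

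Other genes of the pathway were grouped by role from lists of 88 genes, of which 87 were in the table and 64 were tested. Of these, 4 were at least 2-fold higher in *Myl3*-KO and 1 was at least 2-fold lower, against 2.16% and 1.19% of all genes tested. The median log2 ratio of the 64 genes was 0.12, and that of all genes tested was 0.02. All 5 genes past the limit were weakly counted. *Stra6l*, related to the retinol transporter *Stra6*, went from 3 to 8 counts (log2 ratio 1.80, 95% interval -0.26 to 4.35). *Aldh1b1*, a mitochondrial aldehyde dehydrogenase gene, went from 3 to 7 (1.61, interval -0.52 to 4.19). *Dhrs9*, which encodes a short-chain retinol dehydrogenase, went from 16 to 28 (1.19, interval 0.26 to 2.18). *Aldh1l1*, an enzyme gene of folate metabolism, went from 13 to 21 (1.08, interval 0.01 to 2.20). *Lpl*, the lipoprotein lipase gene, went from 17 to 6 (-1.12, interval -2.75 to 0.29). The interval thus excluded 0 for *Dhrs9* and *Aldh1l1* among the 5.

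For the first step of the pathway, 13 of 17 dehydrogenase and reductase genes were tested, with a median log2 ratio of -0.11. *Akr1b3*, *Adh5*, *Dhrs4* and *Rdh11* had the highest levels, from 112.9 FPKM for *Akr1b3* to 22.8 for *Rdh11* in the control. Of these, *Akr1b3* (log2 ratio -0.35, interval -0.44 to -0.26), *Adh5* (-0.18, interval -0.27 to -0.08) and *Rdh11* (-0.22, interval -0.35 to -0.09) were lower in *Myl3*-KO beyond counting error, and *Dhrs4* was at -0.17 with an interval of -0.34 to 0.01. *Rdh10*, the main retinol dehydrogenase of the embryo, and *Dhrs3*, which reduces retinaldehyde back to retinol, were chosen after their values were seen. *Rdh10* had 175 and 106 counts (log2 ratio -0.34, interval -0.70 to 0.02), and *Dhrs3* had 101 and 86 (0.15, interval -0.28 to 0.58). *Rdh5*, likewise chosen after its values were seen, had 120.97 and 133.76 counts (8.73 and 13.2 FPKM, log2 ratio 0.53, interval 0.17 to 0.90). Of the 13 genes tested, the interval lay above 0 for 2 and below 0 for 3, against 22.2% and 20.1% of all genes tested. Of the 17 genes, 2 were at 0 and 2 more were too weakly counted to be tested.

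Retinol uptake and storage genes were few in these cells. Of 11 in the table, 6 were tested, and *Rbp4*, the gene of the serum retinol carrier, was the most abundant with 6.70 FPKM in the control against 6.90 in *Myl3*-KO. *Lipe*, which encodes a lipase, had 36 and 48 counts (log2 ratio 0.80, interval 0.15 to 1.47). *Lrat*, whose product stores retinol as esters, and *Rbp7* and *Ttr* were at 0 in both libraries.

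Among other aldehyde dehydrogenase genes, 6 of 8 were tested and their median log2 ratio was 0.22. *Aldh2*, the mitochondrial enzyme known for acetaldehyde, had 5544 counts in the control against 4970 in *Myl3*-KO, or 265.8 and 312.9 FPKM. These levels lie far above those of the ALDH1A genes. *Aldh2* (log2 ratio 0.23, interval 0.17 to 0.28), *Aldh3a2* (0.22, interval 0.08 to 0.36) and *Aldh9a1* (0.18, interval 0.03 to 0.34) were higher in *Myl3*-KO beyond counting error, and *Aldh1l2* (-0.44, interval -0.58 to -0.30) was lower.

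*Fabp5*, which encodes an alternative carrier of retinoic acid towards the receptor PPAR delta, had 4870 and 2887 counts, or 280.2 and 217.0 FPKM. Its log2 ratio was -0.37 (interval -0.44 to -0.30), whereas *Ppard*, the gene of that receptor, was at 0.10 (interval -0.11 to 0.30). All 20 coregulator genes of nuclear receptors were tested, with a median log2 ratio of 0.11. Of these, 0 were at least 2-fold higher or lower, against 2.16% and 1.19% of all genes tested. Among the most abundant coregulator genes, *Prmt1* (log2 ratio -0.23, interval -0.29 to -0.16) was lower beyond counting error. *Ncor1* (0.10, interval 0.04 to 0.16), *Hdac3* (0.16, interval 0.06 to 0.26) and *Tbl1x* (0.09, interval 0.02 to 0.16) were higher beyond counting error. Over the list, the interval lay above 0 for 10 of the 20 genes and below 0 for 1, against 22.2% and 20.1% of all genes tested. *Tbl1xr1*, which encodes a close relative of the *Tbl1x* product and was named after its values were seen, was at -0.03 (interval -0.13 to 0.07).

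Known target genes of retinoic acid outside the 9 genes were tested for 17 of 24. Of the 17, 0 were at least 2-fold higher or lower, against 2.16% and 1.19% of all genes tested. Their median log2 ratio was 0.17, with values from -0.33 to 0.74. Their counting interval lay above 0 for 4 genes and below 0 for 1, against 22.2% and 20.1% of all genes tested. *Tgm2*, which encodes a transglutaminase, had 1013 and 1159.99 counts (log2 ratio 0.58, interval 0.46 to 0.70). *Tgfb2* had 4282 and 2607 (-0.33, interval -0.40 to -0.26), and *Meis1* had 617 and 551 (0.22, interval 0.05 to 0.39). *Hoxb4*, with 107 and 128 counts (0.64, interval 0.26 to 1.03), and *Foxa1*, with 47 and 60 (0.74, interval 0.16 to 1.32), were named after their values were seen. *Tgm2*, *Meis1*, *Hoxb4* and *Foxa1* are the 4 genes with an interval above 0, and *Tgfb2* is the gene with an interval below 0. *Rarres1* and *Hoxb1* were at 0 in both libraries.

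**Figure D4:**
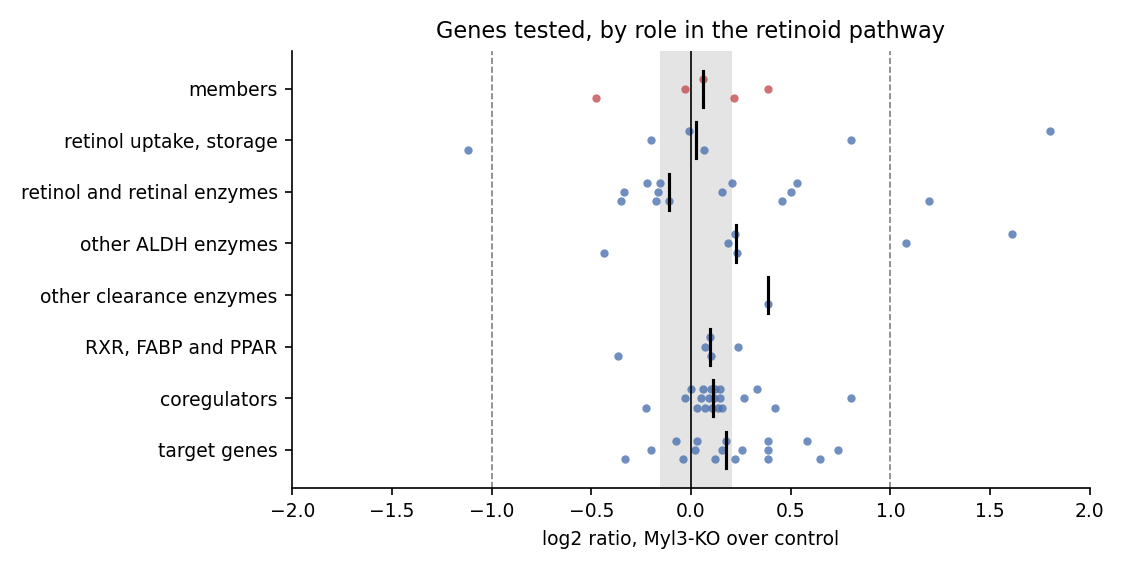
Log2 ratio of *Myl3*-KO over control for each gene tested (points) and the median (black bar) in the members and in the lists of other retinoid genes, with dashed lines at 2-fold and a band between the quartiles of all genes tested. The points of all groups lie on both sides of 0 or near it, except the clearance enzymes with *Cyp26a1* as their only gene tested, and the 5 genes beyond the dashed lines are *Stra6l*, *Aldh1b1*, *Dhrs9*, *Aldh1l1* and *Lpl*.

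Markers of other cells that could be present in rib cartilage were set beside these values. *Aldh1a2* is known from mesothelium, and of 11 mesothelial markers 6 were at 0 in both libraries, with a summed level of 0.46 FPKM in the control against 0.69 in *Myl3*-KO. *Wt1* had 4 counts in each library, *Msln* had 8 and 15, and *Upk3b* had 1 and 0. The fibroblast markers summed to 3199 and 3580 FPKM, and of 12, *Thy1* was at 0 in both. Of the 9 fibroblast markers tested, the interval lay above 0 for 4 and below 0 for 3, against 22.2% and 20.1% of all genes tested. Their median log2 ratio was 0.15. *Col1a2* was at 0.22 (interval 0.22 to 0.23), *Col1a1* at 0.15 (0.12 to 0.19) and *Col3a1* at 0.01 (-0.01 to 0.04). *Postn* was at -0.08 (interval -0.12 to -0.03). *Dcn* and *Lum*, named after their values were seen, were at -1.64 and -1.36. Osteoblast markers summed to 47.0 and 55.1 FPKM, mostly from *Runx2* at 34.7 and 39.3 and *Spp1* at 8.34 and 12.96. *Sp7* had 137 and 98 counts (log2 ratio -0.10, interval -0.49 to 0.29). Near 0 were *Bglap* with 1 and 0 counts, *Ibsp* with 2 and 1 and *Dmp1* with 3 and 5. *Alpl* of the same list, named after its values were seen, went from 46 to 7 counts (log2 ratio -2.33, interval -3.72 to -1.17). Endothelial, immune and epithelial markers summed to at most 1.64 FPKM in either library, and the neural markers to 6.64 and 7.67. Of 11 skeletal muscle markers 6 were at 0, and *Cdh15* went from 73 to 290 counts. The part of these differences in the values of the retinoid genes was not tested.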

How the data were processed

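Bulk RNA of primary chondrocytes was compared between genotypes with 1 library each. Expected counts, not normalized, and FPKM values, per gene length and library, were deposited by the authors, and the labels name GRCm38 and mm10 as the genome build. The aligner and counting tool are not given in the sources used here. Of the columns headed NC and KO, KO matches the knockout label, and NC was therefore read as the control. The members and gene lists were chosen with earlier results of these data known.

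Counts were divided by the library total, counts under 3 were raised to 3 for the log2 ratio, and rounded counts gave Clopper-Pearson and Poisson intervals (95%). Counts of 1 to 3 in a named gene are given with their unfloored ratio. A gene was tested with at least 10 counts over both libraries. With 1 library per genotype no model was fitted and no p-value computed. Genes named from the pathway lists are those past 2-fold and up to 4 of the most abundant, of which 1 is not reported here, and from marker lists the 3 most abundant and the first 3 as written. Others are named after their values were seen. The ratio and interval code was checked on simulated data. TMM (edgeR 4.0.16) and DESeq2 1.42.0 served as alternative scalings, in R 4.3.3, and Python 3.11.15, scipy 1.17.1 and matplotlib 3.10.9 did the rest. Coordinates come from GENCODE M21.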

Additional observations from a re-analysis of the deposited data

How the results depend on the processing

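The log2 ratios of the 5 genes tested stayed within their counting intervals under TMM scaling, DESeq2 size factors, 1 count added in place of the floor and the FPKM ratio. Both other filters on low counts only choose which genes are kept, so they cannot change the ratio of a gene. *Rarb* moved most, from -0.42 with 1 count added to -1.02 with FPKM, and with FPKM 1 of the genes was at least 2-fold lower. Its share of the RAR counts in the control was 0.958%, against 1.76% of the FPKM. Of all genes, 108 were higher and 31 lower with at least 10 counts in each library, 767 and 360 with a limit of 1.5-fold, 31 and 6 with a limit of 4-fold, and 21 and 9 where the whole counting interval had to pass 2-fold, in place of 268 and 148. Of the other retinoid genes, 2 were higher and 0 lower with at least 10 counts in each library, 8 and 1 with a limit of 1.5-fold, 0 and 0 with a limit of 4-fold, and 0 and 0 by the whole interval, in place of 4 and 1. Genes lower numbered 0 with 1 count added and 2 with FPKM. The stricter filter leaves fewer genes to be counted, and the cause of the other shifts was not tested.

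With 1 library per genotype, depth limits only the counting error. At 8 and 2 counts for the ALDH1A genes and about 20 and 11 for *Rarb*, differences below several-fold were not detectable, and genotype and culture cannot be told apart.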

Other observations

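The pathway column of the deposited table lists 89 genes under the KEGG pathway retinol metabolism, among them 3 of the genes described above, *Aldh1a1*, *Aldh1a2* and *Cyp26b1*. Of the 89 genes, 56 were at 0 in both libraries and 21 were tested. Of the 21, 3 (*Aox4*, *Dhrs9* and *Ugt1a10*) were at least 2-fold higher in *Myl3*-KO and 0 at least 2-fold lower. Over all genes tested these shares were 2.16% and 1.19%. *Dhrs9* was already counted above among the genes of the pathway lists past the limit. *Ugt1a10* was weakly counted, with 4.97 and 11.55 counts (log2 ratio 1.60, interval 0.04 to 3.51). The median log2 ratio of the 21 was 0.15, and that of all genes tested was 0.02. Among the best counted of those near the limit were the aldehyde oxidase genes *Aox1* and *Aox4*, chosen after their values were seen. *Aox1*, whose enzyme can also oxidise retinaldehyde, went from 144 to 215 counts (1.85 and 3.61 FPKM, log2 ratio 0.96, 95% interval 0.65 to 1.28). *Aox4* went from 76 to 118 counts (0.87 and 1.76 FPKM, log2 ratio 1.02, interval 0.59 to 1.46). Their sequences are related, and how reads were divided between them is not given in the sources used here. *Retsat*, which encodes a retinol saturase and was likewise chosen after its values were seen, had 1133 and 793 counts (log2 ratio -0.13).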
